A study of Manis javanica with 3 samples.

Results

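The genes described here are the transporters of bile salts, organic ions, drugs and lipids of the Malayan pangolin (Manis javanica), from the solute carrier families SLC10A, SLC22A, SLC47A and SLCO and the ATP-binding cassette families ABCA to ABCG. They were taken by the symbol of the Swiss-Prot entry that the authors deposited for each gene. This gave 73 of 22538 annotated genes, and 71 of them were among the 24220 genes of the expression tables. The other 2, SLC10A3 (gene12334) and SLC22A17 (gene11599), have no values in these tables and were not analysed here.

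Bile salts are made from cholesterol in hepatocytes, pumped into bile across the canalicular membrane, taken up again in the ileum and returned to the liver by the portal blood. Carriers of the SLC10A, SLCO and SLC22A families bring bile salts and organic ions into the hepatocyte at its sinusoidal side. Pumps of the ABC families spend ATP to move bile salts, phospholipid, conjugates and drugs into bile or back into blood. Other ABC proteins export cholesterol, work in mitochondria or peroxisomes, form a subunit of a potassium channel, or, in the ABCF family, bind ribosomes without spanning a membrane.

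A wild adult female that died during rescue gave the RNA of all 3 tissues, liver, salivary glands and small intestine, with 1 library per tissue and no treatment named in the labels. No value therefore has a replicate check, no p-value is given, and intervals cover counting error only. A lower bound (at least) sets a count of 0 to 3 fragments and takes the other count as it stands, so it leaves out the counting error of that other count. The deposited counts summed to 10158924 fragments for small intestine, 8318686 for salivary glands and 14568778 for liver, so that a count of 0 allows up to 0.295, 0.361 and 0.206 CPM (counts scaled to a common library size). FPKM, in which the fragment number is divided by gene length and by the mapped fragments of the library, was used to compare levels between genes.

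The tissue labels were checked against marker genes. In the liver library the 8 hepatocyte genes summed to an FPKM of 18200, against 112 for small intestine and 55.8 for salivary glands, with FGB (fibrinogen) at 12822 and albumin at 434. Among the 8 is gene10056, which has the symbol TTR but an NR entry of a 5-hydroxyisourate hydrolase-like protein. It gave 22.8 of the sum for small intestine, 53.1 of that for salivary glands and 35.1 of that for liver. Albumin was also present for small intestine, at an FPKM of 89.1. That library went against its label in part: 10 gastric genes summed to an FPKM of 15800, with PGC (gastricsin) at 9427 and ATP4A (the stomach proton pump) at 1073. On the same list GIF (gastric intrinsic factor) and LIPF (gastric lipase) were low there, with 9 and 5 fragments. GKN2 and MUC6 were not found by symbol. The enterocyte genes FABP2 and LCT were listed at 0 in every library, and SI (sucrase-isomaltase) had 2 counts in the library labelled small intestine. The other 3 genes found for this list were counted there. SLC5A1, the intestinal glucose carrier, had 63 fragments against 10 for salivary glands and 24 for liver, ANPEP had 26, 2 and 167 in the same order, and VIL1 had FPKM values of 24.0, 25.7 and 21.2. Values of this library are therefore those of the RNA sequenced under that label. In the salivary gland library AQP5, the water channel of acinar cells, reached an FPKM of 94.3, against 2.29 for small intestine and 24.7 for liver. The 6 genes of the salivary list summed to an FPKM of 163 there, against 10.5 and 26.1, but LPO had 6 fragments and both BPIFA1 genes were listed at 0 in every library.

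The Swiss-Prot symbols were shared among paralogs. The 71 genes carried 24 symbols, and the symbol equalled the name given by the KEGG or NR entry for 22 genes and differed for 49. The symbol ABCG2 stood for 10 genes, among them ABCA2, ABCA3, ABCA5, ABCA8, ABCA12, ABCG1, ABCG4, ABCG5 and ABCG8. The symbol ABCB8 stood for 7 genes, which included ABCA1, ABCA4 and ABCA13. In the text each gene goes by its KEGG symbol or, failing that, its NR product name. Fragments that fit near-identical copies could have been split or shared in counting, so the values of close paralogs are uncertain.

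In the liver library 40 of the 71 genes (56.3%) had an FPKM above 1, the level taken here as expressed, against 57.0% of all genes. Small intestine had 31 (43.7%, against 59.4% of all genes), and salivary glands had 26 (36.6%, against 56.3%). The median FPKM of the transporters was 1.59 in liver, 0.534 in small intestine and 0.315 in salivary glands, where the medians of all genes were 1.89, 2.16 and 1.76. An FPKM above 1 was reached in all 3 libraries by 23 transporters, in at least 1 library by 45 and in none by 26. Of the 45, the highest FPKM lay in liver for 27, in small intestine for 10 and in salivary glands for 8. The members nearest the limit were SLC10A1 (FPKM 1.03) and SLCO5A1 (0.937) in liver, ABCB1 (1.03) and SLC10A4 (0.959) in small intestine, and ABCB4 (1.01) and a gene like ABCC1 (0.873) in salivary glands.

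**Figure D1:**
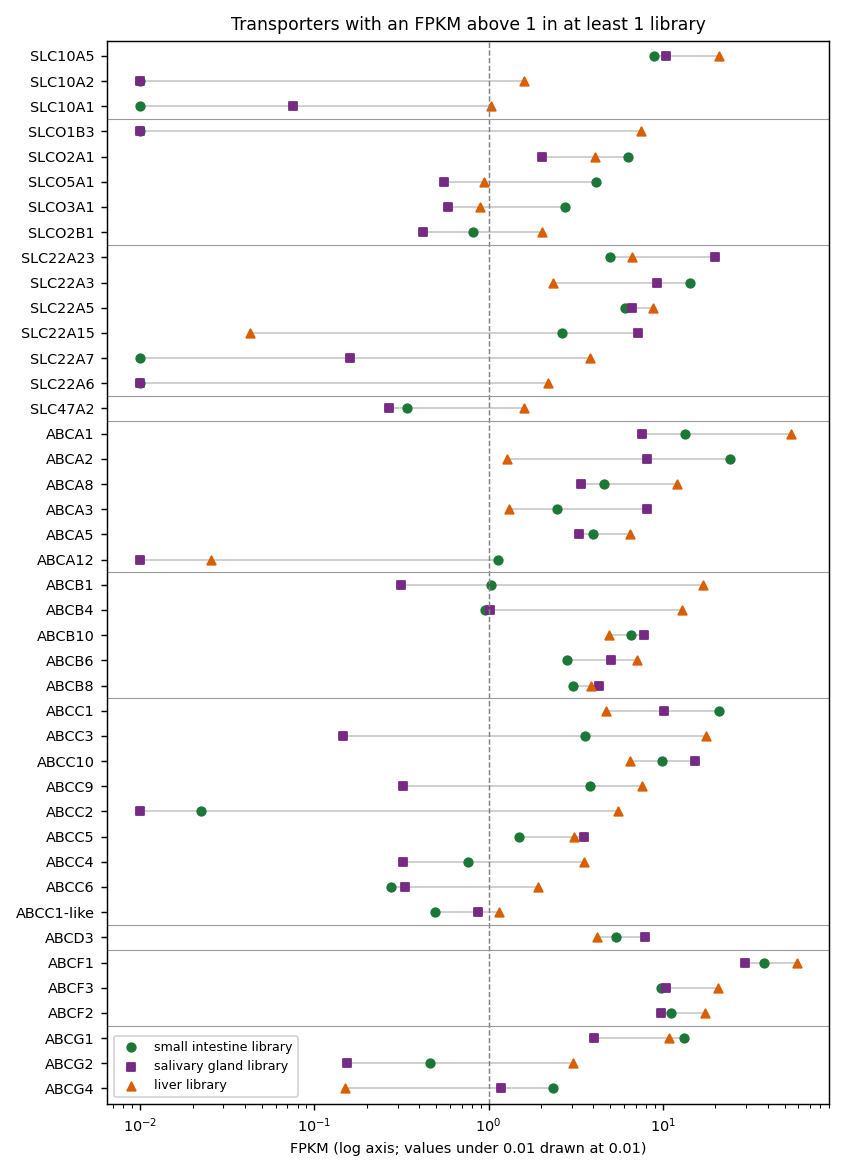
FPKM (log axis, values under 0.01 drawn at 0.01) of 42 of the 45 transporters above an FPKM of 1 in at least 1 library, with 1 point per library and the dashed line at an FPKM of 1. For 25 of these genes the liver triangle is the rightmost point, and the ABCF genes at the lower part of the plot are high in all 3 libraries.

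For comparisons between libraries, counts were scaled by TMM factors, and a gene with at least 10 fragments in at least 1 of both libraries was called at a fold of at least 2. Fragments reached 10 in at least 1 library for 53 transporters and stayed below 10 in every library for 18. Liver was higher than small intestine for 23 of 51 transporters, or 45.1%, where 24.0% of all 17399 genes tested were higher in liver. In the other direction 10 transporters (19.6%) were called, against 24.2% of all genes. Liver was higher than salivary glands for 24 of 51 (47.1%, against 24.9% of all genes) and lower for 12 (23.5%, against 22.9%). Small intestine was higher than salivary glands for 12 of 42 (28.6%, against 20.6% of all genes) and lower for 6 (14.3%, against 16.9%). With library size only in place of TMM factors, these last counts became 9 higher and 10 lower. The median log2 fold of the transporters was 0.74 for liver over small intestine, 0.88 for liver over salivary glands and 0.26 for small intestine over salivary glands, beside 0.08, 0.07 and -0.02 for all genes tested.

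**Figure D2:**
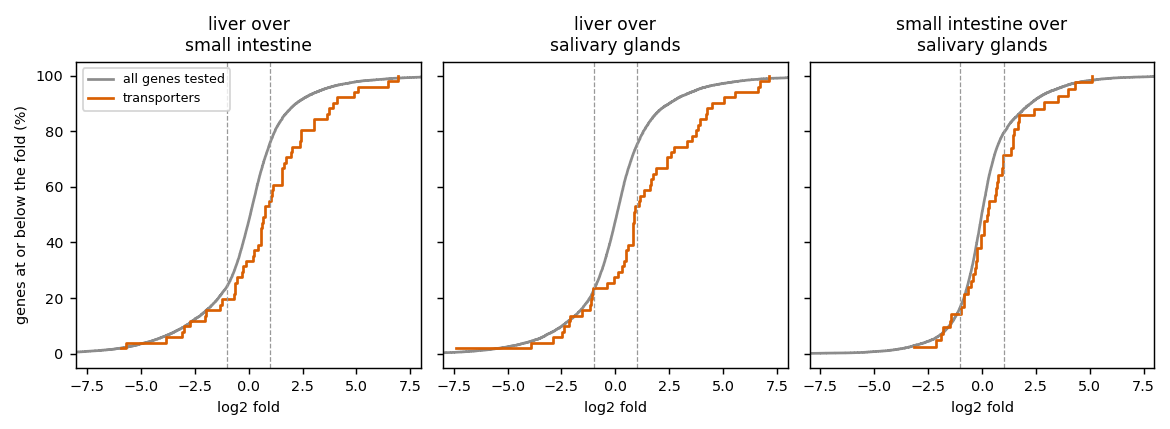
Cumulative share of genes (%) by log2 fold of TMM-scaled counts in the 3 comparisons, for the transporters (orange) and all genes tested (grey), with dashed lines at a fold of 2 in each direction. In both liver comparisons the orange line lies right of the grey line between log2 folds of about 0 and 6, with 23 and 24 transporters past the right dashed line.

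Of the 53 transporters tested, 19 (35.8%) were higher in liver than in both other libraries, beside 15.9% of the 18037 genes with at least 10 fragments in at least 1 library. Both small intestine and salivary glands had 5 transporters (9.43%) higher than in both others, beside 12.2% and 9.0% of those genes. The 19 held uptake carriers, bile exporters, basolateral pumps and lipid transporters, and are taken by role in what follows. Another 8 transporters were called in no comparison, among them ABCF1, ABCF2, ABCB8 and the carnitine carrier SLC22A5.

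The sinusoidal uptake carriers had most of their fragments in the liver library. All 5 carriers that could be tested were higher in liver than in both other libraries, beside 15.9% of all genes with at least 10 fragments in at least 1 library. The sixth, SLCO1A2 (gene10083), had 2 fragments in liver and 0 elsewhere. No member went by the names SLCO1B1 and SLC22A9, which also stood on this list. SLC22A18 (gene19471), also on this list but without a Swiss-Prot symbol and so outside the rule, ran the other way, with 188, 172 and 107 fragments in small intestine, salivary glands and liver and log2 folds of liver over the other libraries of -1.57 and -1.28. SLCO1B3 (gene10082, OATP1B3), which takes up bile salts and many drugs, had 0 fragments in small intestine, 0 in salivary glands and 451 in liver, where its FPKM was 7.52. Its liver level was at least 88.8-fold and at least 99.8-fold higher than in small intestine and salivary glands. It lies on scaffold NW_016534086.1 from 14597 to 56125 on the plus strand. Its Swiss-Prot symbol is SLCO3A1 and its NR entry gives only a hypothetical protein, so which SLCO paralog it is remains uncertain. SLC22A7 (gene13786, OAT2), a carrier of organic anions, had 0, 5 and 169 fragments in small intestine, salivary glands and liver, and its liver level was 22.4-fold that of salivary glands (95% interval 9.43 to 70.0). Its gene span overlaps that of CRIP2 on the opposite strand by 40 bases, and the reads were aligned without strand.

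SLC10A1 (gene5890, NTCP), the sodium-dependent carrier that takes most conjugated bile salts from portal blood into hepatocytes, was low in liver. It had 0 fragments in small intestine, 1 in salivary glands and 20 in liver, an FPKM of 1.03 there. Liver was higher by at least 3.94-fold over small intestine and by 13.3-fold over salivary glands (95% interval 2.12 to 551). Its FPKM in liver was thus below that of SLCO1B3 and SLC22A7 in the same library. SLCO2B1 (gene22689), an organic anion carrier found in several tissues, was counted in all 3 libraries, at 27, 24 and 134 fragments, and was 2.93-fold higher in liver than in small intestine (95% interval 1.93 to 4.61) and 3.71-fold higher than in salivary glands (2.39 to 5.99). As these are bulk libraries, fewer cells of a type and less RNA per cell cannot be told apart for any of these genes.

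SLC10A2 (gene22440, ASBT), which takes up bile salts from the gut lumen in the terminal ileum and also from bile in bile ducts, was counted only in the liver library. It had 68 fragments and an FPKM of 1.60 in liver, 0 in small intestine and 0 in salivary glands, so that liver was at least 13.4-fold higher than small intestine. The 9 genes of the cholangiocyte list summed to an FPKM of 84.4 in small intestine, 564 in salivary glands and 49.5 in liver, with KRT7 at 15.2 and KRT19 at 0.559 in the liver library. KRT7 reached 197 in salivary glands, so this list is not particular to bile duct cells and its order over the libraries does not measure them. The part of bile duct cells in the SLC10A2 value was not tested. FABP6 (gene8825), the ileal carrier of bile salts inside the cell, had 2 fragments in liver and 0 in the other libraries. SLC51A (gene21552), a subunit of the transporter that passes bile salts out of the ileal cell, was listed at 0 in all 3, while its partner SLC51B (gene4113) had 36, 69 and 178 fragments in small intestine, salivary glands and liver.

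Among other SLC10A genes, SLC10A4 (gene17181), a carrier of nerve cell vesicles, had 14, 1 and 0 fragments in small intestine, salivary glands and liver. SLC10A6 (gene20979) had 1 fragment in all. SLC10A5 (gene9603), whose substrate is not settled, was the highest of the SLC10A genes within the rule by FPKM, at 8.89, 10.4 and 20.9 in the same order, from 41, 55 and 146 fragments. Its deposited FPKM was 5.45 times the value computed from its count, its listed length and the total count of the library, a ratio whose median was 1.06 over 53 transporters. Its level therefore depends on which scale is read, and its call of 2.10-fold (95% interval 1.48 to 3.05) in liver over small intestine rests on counts.

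The canalicular exporters fell into members that were well counted in liver and members with next to no fragments. Of 10 genes on this list, 6 could be tested, and 5 were higher in liver than in small intestine and 6 higher than in salivary glands, with none lower. The shares of all genes tested that were higher in liver were 24.0% and 24.9% in these comparisons. ABCC2 (gene11190, MRP2), the pump of bilirubin and drug conjugates into bile, had 3 fragments in small intestine, 0 in salivary glands and 626 in liver, where its FPKM was 5.52. The liver level was 123-fold that of small intestine (95% interval 42.0 to 599) and at least 139-fold that of salivary glands. It lies on scaffold NW_016534917.1 from 86246 to 152310 on the plus strand. ABCB4 (gene175, MDR3), which flips phosphatidylcholine into bile, had 34, 40 and 706 fragments and FPKM values of 0.951, 1.01 and 12.8 in small intestine, salivary glands and liver. ABCB1 (gene12192, MDR1 or P-glycoprotein), the broad drug pump, had 42, 15 and 1066 fragments and FPKM values of 1.03, 0.315 and 17.1. Liver exceeded small intestine by 12.3-fold for ABCB4 (95% interval 8.70 to 17.9) and 15.0-fold for ABCB1 (11.0 to 20.9). ABCB1 was also 3.15-fold higher in small intestine than in salivary glands (1.71 to 6.11). ABCG2 (gene2868, BCRP), a pump of drugs and urate, had 10, 4 and 87 fragments, and was 5.14-fold higher in liver than in small intestine (2.67 to 11.1).

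The bile salt export pump ABCB11, which in mammals carries out most of the canalicular secretion of bile salts, was near absent from the liver library. The annotation holds 4 genes under this product name, on 4 scaffolds, with listed lengths between 527 and 12560 bases. The genes do not overlap each other, though gene1667 shares 5531 bases with DHRS9 on the opposite strand. The longest (gene9364) had 0 fragments in small intestine, 5 in salivary glands and 0 in liver. The genes gene1667, gene23803 and gene17624 had 0, 1 and 1 fragments in liver. All 4 together had 0, 6 and 2 fragments in small intestine, salivary glands and liver, and the exact Poisson upper limit of the liver sum was 7.22 fragments. ABCB4 and ABCB1, of the same subfamily, had 706 and 1066 in that library. Another liver gene, FABP1 (gene15728, liver fatty acid-binding protein), was likewise listed at 0 in all 3 libraries, while hepatocyte genes such as FGB, with 305441 fragments, were at their highest there.

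ABCG5 (gene21814) and ABCG8 (gene21815), which pair to form the sterol pump that moves cholesterol and plant sterols into bile and gut lumen, were low everywhere. ABCG5 had 0, 0 and 15 fragments and ABCG8 had 7, 0 and 14 in small intestine, salivary glands and liver, with liver FPKM values of 0.325 and 0.231. The genes lie 82 bases apart on opposite strands of scaffold NW_016551117.1, where ABCG5 runs from 67112 to 89877 and ABCG8 from 89960 to 106484. The gene with the symbol SLC47A1 (gene19865) had no fragment in any library. That symbol belongs to MATE1, an exporter of organic cations into bile and urine. Its NR entry names a multidrug and toxin extrusion protein 2-like, so which paralog gene19865 is remains uncertain. Of the 4 SLC47A genes only SLC47A2 (gene19940) passed 10 fragments, with 3, 3 and 27, and it was 5.32-fold higher in liver than in small intestine (95% interval 1.64 to 27.4).

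**Figure D3:**
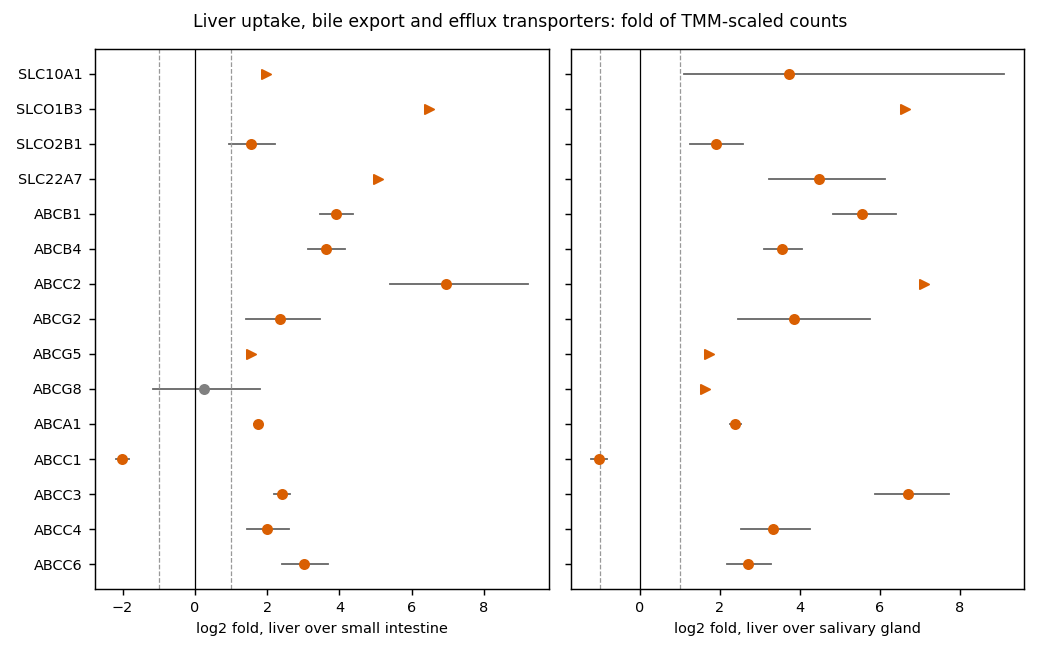
Log2 fold of TMM-scaled counts of 15 uptake, bile export and efflux transporters, liver over small intestine (left) and liver over salivary gland (right), with 95% counting intervals as bars, arrowheads for lower bounds where the other library had 0 fragments, and dashed lines at a fold of 2. ABCC1 is the only gene left of 0 in both panels, and ABCG8 on the left, in grey, is the only one within a fold of 2.

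The pumps of the basolateral membrane, which return conjugates and bile salts from hepatocytes to blood, were higher in liver except for ABCC1, as was ABCA1, which stood on the same list (4 of 5 genes higher and 1 lower, against either other library). Of all genes tested, 24.0% were higher and 24.2% lower in liver than in small intestine, and 24.9% and 22.9% than in salivary glands. ABCC3 (gene14118, MRP3) had 194 fragments in small intestine, 11 in salivary glands and 1743 in liver, with FPKM values of 3.59, 0.146 and 17.8. It was 5.31-fold higher in liver than in small intestine (95% interval 4.57 to 6.19) and 105-fold higher than in salivary glands (58.7 to 211). By FPKM it was the highest ABCC gene of the liver library. ABCC4 (gene10810, MRP4) had 29, 13 and 196 fragments and was 3.99-fold higher in liver than in small intestine (2.69 to 6.12), with a log2 fold of 3.32 over salivary glands (2.52 to 4.26). ABCC6 (gene12402, MRP6), a hepatic pump known for its role against calcification of connective tissue, had 23, 32 and 315 fragments, and its liver level was 8.09-fold that of small intestine (5.30 to 13.0). The gene span of ABCC6 shares 1660 bases with gene12401 on the opposite strand, which had 904, 1200 and 3231 fragments. The reads were aligned without strand, and whether fragments were shared there was not tested.

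ABCC1 (gene12403, MRP1), a pump of glutathione conjugates found in most tissues but little in healthy hepatocytes, ran the other way. It had 910, 517 and 383 fragments and FPKM values of 21.1, 10.1 and 4.75 in small intestine, salivary glands and liver. Small intestine was 4.02-fold higher than liver (95% interval 3.57 to 4.54) and salivary glands 2.03-fold higher than liver (1.78 to 2.33). ABCC1 and ABCC6 lie on the same scaffold with 3513 bases between them, on opposite strands. A further gene like ABCC1 (gene5664) had 20, 40 and 66 fragments and was called in no comparison.

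The remaining ABCC pumps differed among themselves. ABCC10 (gene1620, MRP7) had 478, 965 and 667 fragments, with its highest FPKM, 15.3, in salivary glands, where it was 2.18-fold above liver (95% interval 1.97 to 2.41). It shares 69 bases with DLK2 on the opposite strand. ABCC5 (gene20514, MRP5), an exporter of cyclic nucleotides, had 91, 275 and 321 fragments and was lower in small intestine than in both others. ABCC11 (gene9098, MRP8), known for its part in apocrine sweat and earwax, had 3, 30 and 3 fragments, 15.1-fold higher in salivary glands than in liver (4.68 to 77.1).

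ABCC9 and ABCC8 encode sulfonylurea receptors, the regulatory subunits of ATP-sensitive potassium channels. ABCC9 (gene10093, SUR2), the form of vascular and other muscle, had 234, 23 and 633 fragments in small intestine, salivary glands and liver, with FPKM values of 3.83, 0.323 and 7.55. It was 18.3-fold higher in liver than in salivary glands (95% interval 12.1 to 29.0) and 11.4-fold higher in small intestine than in salivary glands (7.44 to 18.4). KCNJ8 (gene10091), the pore subunit that pairs with it, had FPKM values of 23.3, 0.558 and 30.4 in the same order. ABCC8 (gene15995, SUR1), the form of islet and nerve cells, had 4, 7 and 56 fragments, and its pore partner KCNJ11 (gene15996) had 3, 3 and 5.

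Among carriers of organic ions outside the hepatic uptake list, SLC22A6 (gene8890, OAT1), known mainly from the kidney, had 0, 0 and 86 fragments in small intestine, salivary glands and liver. Its FPKM in liver was 2.20, at least 16.9-fold above small intestine on the scale of counts. SLC22A3 (gene14417, OCT3), a widely expressed carrier of organic cations, had 325, 242 and 84 fragments and FPKM values of 14.3, 9.24 and 2.34. It was 6.55-fold higher in small intestine than in liver (95% interval 5.14 to 8.43). SLC22A5 (gene3821, OCTN2), which brings carnitine into cells, was called in no comparison, with FPKM values of 6.10, 6.67 and 8.74. SLC22A13 (gene7113) had 15, 16 and 43 fragments. The kidney urate carriers SLC22A11 and SLC22A12 had at most 7 and 2 fragments in any library, and SLC22A2, SLC22A14 and SLC22A20 at most 2.

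The SLC22A genes with their highest level in salivary glands were SLC22A23 and SLC22A15. SLC22A23 (gene5502), a carrier without a known substrate, had 230, 1136 and 579 fragments in small intestine, salivary glands and liver. Its FPKM of 19.9 made it second to ABCF1 among the transporters of the salivary gland library, 4.39-fold above small intestine (95% interval 3.81 to 5.08) and 2.95-fold above liver (2.67 to 3.27) on the scale of counts. SLC22A15 (gene4467), a carrier of zwitterions such as ergothioneine, had 107, 336 and 3 fragments. It was 169-fold higher in salivary glands than in liver (57.2 to 822) and 60.4-fold higher in small intestine than in liver (20.1 to 297).

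SLCO2A1, SLCO3A1 and SLCO5A1 were highest in small intestine by FPKM. SLCO2A1 (gene1132), the prostaglandin transporter, had 248, 104 and 289 fragments and FPKM values of 6.32, 2.02 and 4.10 in small intestine, salivary glands and liver. SLCO3A1 (gene7061) had 50, 17 and 36 fragments and SLCO5A1 (gene13432) had 92, 14 and 40. SLCO5A1 was 7.39-fold higher in small intestine than in salivary glands (95% interval 4.19 to 14.0), and its deposited FPKM was 3.17 times that from its count and length. SLCO1C1, the thyroid hormone carrier of the blood-brain barrier, had 1 fragment in liver and 0 elsewhere.

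Among the lipid transporters of the ABCA and ABCG families, the highest FPKM in liver was that of ABCA1 (gene20152), which loads cholesterol and phospholipid onto apolipoprotein A-I. It had 695 fragments in small intestine, 500 in salivary glands and 3931 in liver, and its FPKM of 54.4 made it second among the transporters of the liver library. Liver was 3.34-fold above small intestine (95% interval 3.08 to 3.63) and 5.22-fold above salivary glands (4.76 to 5.74). Its deposited FPKM was 2.10 times that from count and length. Macrophages also express ABCA1, and the 5 genes of the macrophage list summed to an FPKM of 32.6 in small intestine, 25.6 in salivary glands and 445 in liver, with CD163 at 7.67, 6.96 and 61.0. Of the liver sum, 367 came from gene18222, which has the symbol C1QA but an NR entry of C1q subunit C. Another gene with that symbol (gene1406) has an NR entry of a C1q tumor necrosis factor-related protein. It ran the other way, with 86, 43 and 35 fragments in small intestine, salivary glands and liver. None of the list was at 0 in liver, and the part of macrophages in the ABCA1 value was not tested.

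ABCG1 (gene877), which passes cholesterol to HDL particles, had 590, 246 and 931 fragments, with FPKM values of 13.2, 4.01 and 10.9 in small intestine, salivary glands and liver. It was lowest in salivary glands, 2.51-fold below liver (95% interval 2.18 to 2.90), and small intestine and liver lay within a fold of 2. ABCG4 (gene3298), a close relative, had 94, 54 and 11 fragments and was 14.5-fold higher in small intestine than in liver (7.73 to 30.0). ABCA8 (gene17422) had 104, 119 and 556 fragments, with an FPKM of 12.0 in liver, 3.16-fold above small intestine (2.56 to 3.93).

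ABCA2 (gene17792), a lipid transporter of lysosomes best known from the brain, was the highest ABCA gene of the small intestine library by FPKM. It had 1154, 686 and 232 fragments and FPKM values of 24.3, 8.08 and 1.28, and small intestine was 8.42-fold above liver (95% interval 7.31 to 9.74). It shares 1525 bases with gene17794 on the opposite strand, which had 351, 81 and 20 fragments, and its deposited FPKM was 2.41 times that from count and length. ABCA12 (gene7942), which loads lipid into granules of the skin barrier, had 91, 0 and 3 fragments, at least 34.1-fold higher in small intestine than in salivary glands. ABCA3 (gene17934), which loads surfactant lipid into lamellar bodies of lung cells, had 145, 581 and 155 fragments. Salivary glands were 3.56-fold above small intestine (2.97 to 4.31) and 5.64-fold above liver (4.72 to 6.78) for this gene. ABCA5 was called in no comparison, and ABCA4 and ABCA13 had at most 19 and 21 fragments.

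Of the ABC proteins of mitochondria and peroxisomes, 6 genes fell within the rule, and all 6 had an FPKM above 1 in every library. Outside the rule, ABCD2 (gene5683) had 4, 0 and 3 fragments in small intestine, salivary glands and liver. A gene like ABCD2 by its NR entry (gene10153) had 4, 0 and 19. ABCD4 (gene6928), listed with these genes although it exports vitamin B12 from lysosomes, had 598, 889 and 4082. Of the 6, in liver 1 was higher and 0 were lower than in small intestine, and 1 was higher and 2 were lower than in salivary glands, and their median log2 fold was 0.05 for liver over small intestine and 0.17 for liver over salivary glands, beside 0.08 and 0.07 for all genes tested. ABCB6 (gene57), a porphyrin transporter, had FPKM values of 2.82, 5.04 and 7.16 in small intestine, salivary glands and liver, and was 2.97-fold higher in liver than in small intestine (95% interval 2.32 to 3.84). ABCB8 and ABCB10, both of the inner mitochondrial membrane, had their highest FPKM in salivary glands, at 4.31 and 7.78. The peroxisomal importer ABCD3 (branched-chain acids and bile acid intermediates) had an FPKM of 4.17 in liver, where it was 2.24-fold below salivary glands (1.84 to 2.74).

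The ABCF proteins act on ribosomes. ABCF1 (gene6243), which takes part in translation initiation, led the transporter genes of all 3 libraries, with FPKM values of 38.3, 29.5 and 58.6 in small intestine, salivary glands and liver. ABCF2 had 11.1, 9.80 and 17.6 and ABCF3 had 9.77, 10.5 and 20.7. Of the 3, only ABCF3 was called, 2.18-fold higher in liver than in small intestine, with a 95% interval that reached down to the limit of the call and up to 2.38.

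Some genes of these families that stand side by side on a scaffold differed in level. SLC22A8 (gene8889, OAT3) and SLC22A6 lie 8878 bases apart on the same strand, and had 0 and 86 fragments in liver. SLCO1B3 and SLCO1A2 lie 11318 bases apart, with 451 and 2 in liver.

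Of the 71 genes, 5 had no fragment in any library. They were SLC22A8, SLC47A1 (gene19865), a gene like SLC47A2 (gene19942) and a pair of genes on short scaffolds (gene26064 and gene26214). The Swiss-Prot symbol of gene19942 is SLC47A1, and its NR entry gives only a hypothetical protein. The NR entries of the pair name a bacterial and a worm protein, and no transporter name is given for them here.

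Genes that make bile acids and control their handling were taken from lists. Of the 16 genes found for bile acid synthesis, 15 could be tested between liver and small intestine, and 13 were higher and 1 lower in liver, with a median log2 fold of 2.16. Among all genes tested in this comparison, 24.0% were higher and 24.2% lower in liver. The 16 include more than 1 gene each for CYP7A1, HSD17B4 and SLC27A2. CYP27A1 (gene2961), which starts the acidic route of synthesis, had the highest FPKM of the list in liver, at 463, against 7.77 in small intestine and 0.659 in salivary glands. SCP2 (gene15200), a carrier of sterols in peroxisomes, followed at 176. CYP7A1, the rate-limiting enzyme of the classical route, was low. The gene with the NR name cholesterol 7-alpha-monooxygenase (gene10683) had 0, 0 and 11 fragments, an FPKM of 0.362 in liver. A second gene with the KEGG symbol CYP7A1 (gene17719) had 2036 fragments in liver and an FPKM of 30.2, but its NR entry names a 25-hydroxycholesterol 7-alpha-hydroxylase. ACOX2 (gene6942), the peroxisomal oxidase of bile acid side chains, was the gene that was lower in liver, with 1279 fragments in small intestine, 212 in salivary glands and 138 in liver. A short gene named HSD17B4 (Manis_javanica_newGene_8788) was listed at 0 in liver and had 1 fragment in small intestine. Other genes of this name were well counted in liver. There gene19348 had 399 fragments and an FPKM of 30.2, and Manis_javanica_newGene_11693 had 83 fragments and an FPKM of 42.9.

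Of 8 regulators, 7 could be tested against small intestine, and 6 were higher in liver, with none lower, beside 24.0% higher and 24.2% lower of all genes tested. NR5A2 (gene8741, LRH-1), an activator of bile acid synthesis genes, reached an FPKM of 43.7 in liver, and HNF4A (gene18898) reached 22.2. NR1H4 (gene13560, FXR), the bile acid receptor that in mammals turns on ABCB11, had 0, 1 and 156 fragments in small intestine, salivary glands and liver, an FPKM of 4.99 in liver. NR1I2 (PXR), the drug sensor that regulates ABCB1, had an FPKM of 6.96 in liver, and NR1I3 (CAR) had 5 fragments there.

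**Figure D4:**
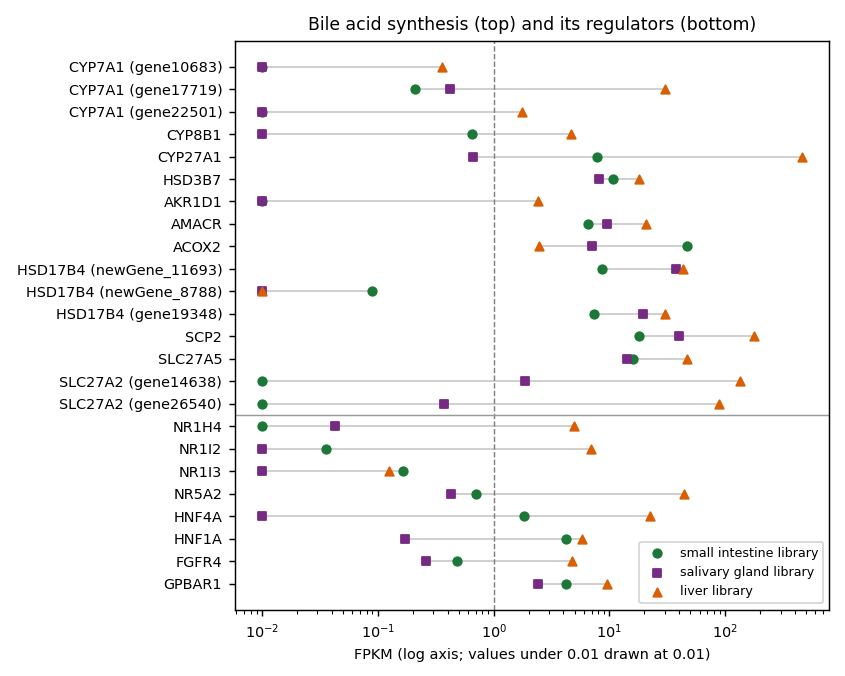
FPKM (log axis, values under 0.01 drawn at 0.01) of genes of bile acid synthesis, above the line, and of regulators, below it, with 1 point per library and the dashed line at an FPKM of 1. CYP27A1 lies farthest right, at 463 in liver, and ACOX2 is highest in small intestine.

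Other ABC genes and partners were read beside the members. CFTR, the chloride channel of the ABCC subfamily, was annotated as gene20826 and gene24896, which had 249 and 114 fragments in salivary glands against at most 16 in the other libraries. The antigen peptide transporters TAP1 (gene25643) and TAP2 (gene25642) had liver FPKM values of 14.5 and 23.5. PEX19 (gene1307), which inserts ABCD proteins into the peroxisome, had FPKM values of 17.5, 15.9 and 22.3 in small intestine, salivary glands and liver. ATP8B1 (gene19826), a flippase that keeps the canalicular membrane stable, had 8.51, 12.7 and 7.65 in the same order. The highest levels among such partners were those of SLC9A3R1 (gene2154), a scaffold protein under the apical membrane, at 53.0 in salivary glands, and of a gene with the symbol TMEM30A (gene22671), a flippase subunit, at 33.1, although its NR entry names a related protein. A gene with the symbol PDZK1 (gene21979), with an NR entry of a hypothetical protein, had 4, 5 and 0 fragments in small intestine, salivary glands and liver. Another gene of this symbol (gene19469), whose NR entry names the regulatory cofactor NHE-RF3, had 64, 159 and 263, an FPKM of 7.51 in liver. Of the 9 partners tested, some of which carry another name in their NR entry, 2 were higher and 3 lower in liver than in small intestine. The shares of all genes tested were 24.0% and 24.2%. The 2 higher were SLC51B and gene19469. All 3 lower genes have the symbol PDZK1, but their NR entries name other proteins. These are NHE-RF4 (gene3296), cytohesin-interacting protein (gene4820) and glutamate receptor-interacting protein 2 (gene9964).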

How the data were processed

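Paired-end RNA-seq libraries of small intestine, salivary glands and liver of the same adult female were analysed, 1 per tissue. The authors aligned cleaned reads to the M. javanica genome with TopHat2, without strand, and deposited per gene a whole-number fragment count, whose counting tool is not given in the sources used here. The authors also deposited FPKM, a scaled score (the count times 1 factor per library, used only as a check) and a gene annotation. The build behind the scaffold names is likewise not given there. The authors' DEGseq test, which has no replicate error, was not used.

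Counts were scaled with TMM factors (edgeR 4.0.16, R 4.3.3) over all 24220 genes, at the depths given above. Folds were called at 2-fold or more among genes with at least 10 fragments in either library, with a count of 0 set to 3, per library, for lower bounds. Intervals of 95% are exact binomial (Clopper-Pearson) for folds and exact Poisson for counts. Expression meant an FPKM above 1. Python 3.11.15, pandas 2.3.3, numpy 2.4.6, scipy 1.17.1 and matplotlib 3.10.9 were used, and the fold procedure was tested on simulated counts. Alternatives were library size, DESeq2 1.42.0 size factors, upper quartile scaling, FPKM ratios, other minimums and thresholds, sums by symbol and other naming rules.

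Members and gene lists were chosen with earlier results of these data known. The rule named members with an FPKM of at least 10 in any library, those of the role lists (canalicular export, sinusoidal uptake and efflux, mitochondrial and peroxisomal, translation), those without a read, those nearest a limit, and, of pathway lists, the 2 highest genes and any at 0 in liver. Other genes, and all names taken from KEGG or NR entries, were chosen after values were seen. For lists, genes were found by KEGG symbol or, where no gene carried it, by the Swiss-Prot symbol of genes without a KEGG symbol. No column lacked a sample. A few members are left unreported by name, and counts over members and lists include them. No reference sequence of these genes was used here.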

Additional observations from a re-analysis of the deposited data

How the results depend on the processing

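Of 126 values computed under alternatives, 105 kept their direction and lay within 1.5 times the main count, or within 0.3 on the log2 scale for a median, 20 moved further and 1 reversed. The reversal was the median log2 fold of small intestine over salivary glands, 0.26 with TMM factors and -0.19 with library size only. Library size only shifted the median log2 fold of all genes by 0.24, -0.22 and -0.46 for liver over small intestine, liver over salivary glands and small intestine over salivary glands, and it changed the sign of no called transporter, but ended 1, 2 and 3 calls in these comparisons, among them those of SLCO3A1, of ABCA4, and of ABCC4, ABCG1 and SLCO2A1. It added calls of the gene like ABCC1 as higher in liver than in small intestine, and of this gene, ABCB6, ABCB8 and ABCC10 as lower in small intestine than in salivary glands. With it, transporters lower in small intestine than in salivary glands numbered 10, against 6. DESeq2 size factors changed no call, and upper quartile scaling added ABCB6 as lower in small intestine than in salivary glands.

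With counts summed by Swiss-Prot symbol, each symbol counting once, liver was higher than small intestine for 9 and lower for 1 symbol, liver was higher than salivary glands for 9 and lower for 3, and small intestine was higher than salivary glands for 3 and lower for 1. With a fold of at least 4, liver was higher than small intestine for 13, liver was lower than salivary glands for 7, and small intestine was higher than salivary glands for 6 and lower for 2. With at least 50 fragments, small intestine was higher than salivary glands for 7. With members taken by KEGG symbol or NR product name, a rule chosen after seeing the data, 14 were higher and 11 lower in small intestine than in salivary glands. Their median log2 fold in this comparison was then 0.001, against 0.264 in the main setting. As this lay within 0.3, it was counted among the values that stayed. Above an FPKM of 5, 15, 16 and 19 transporters were expressed in small intestine, salivary glands and liver, and with each symbol counted once the numbers were 14, 13 and 19, of 24 symbols. The smaller numbers with sums by symbol follow from the 24 symbols in place of 71 genes. No paired analysis was possible because each tissue had 1 library. Depth limits the 18 transporters below 10 fragments in every library, which were not tested, and widens the intervals of genes such as SLC10A1, with 20 fragments.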

Other observations

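The deposited tables also held 21 genes that KEGG or NR entries name as members of the same families but whose Swiss-Prot symbol was missing or belonged to another gene, and 14 of them passed an FPKM of 1 somewhere. These genes were read after the values of the others were seen. ABCD4 (vitamin B12 export from lysosomes) had FPKM values of 12.5, 16.4 and 55.1 in small intestine, salivary glands and liver, and ABCE1 (ribosome recycling) had 15.1, 16.9 and 52.5. Both levels in liver were close to those of ABCF1 and ABCA1, at 58.6 and 54.4. On the scale of scaled counts, the log2 fold of liver over small intestine was 2.01 for ABCD4 and 1.38 for ABCE1. ABCA6, a neighbour of ABCA8 in the lipid transporter family, had FPKM values of 6.71, 6.13 and 15.5.

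SLCO4A1, a carrier of thyroid hormone and organic anions, had 172 fragments in small intestine, 19 in salivary glands and 8 in liver, a log2 fold of 3.35 for small intestine over salivary glands. SLC22A18, of the uptake list, had FPKM values of 18.0, 13.2 and 4.70 in small intestine, salivary glands and liver. A shorter gene named SLC22A15 on another scaffold had 10, 44 and 0 fragments, and a partial gene like SLC22A23 had 36, 97 and 87, so that in both the highest count lay in salivary glands, as in the longer genes of these names. SLC10A7 was annotated as 3 genes, with their highest FPKM in salivary glands, at 12.2, 13.3 and 9.50. A further 4 of the 21 genes had no read.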
